A study of Mus musculus with 20 samples.

Results

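Toll receptors, NOD receptors and the alarmins that they sense were followed in mouse kidney after ischemia and reperfusion injury (IRI). The set held 10 of the 27827 gene names on the array, chosen by name: the receptor genes Tlr2, Tlr3 and Tlr4, the co-receptor gene Cd14, the adaptor gene Myd88, the inhibitor gene Irak3, the NOD receptor genes Nod1 and Nod2, and the alarmin genes S100a8 and S100a9. Whole kidney RNA of male C57BL/6 mice, aged 8 to 12 weeks, was hybridized to 20 one-color arrays, 4 in each of 5 groups. Control mice had neither surgery nor treatment, so the effects of anesthesia and incision cannot be told apart from those of ischemia in any comparison with Control. IRI mice had both renal pedicles clamped for 45 min and were killed after 6 h of reperfusion. IRI+Hemin mice received hemin, an inducer of heme oxygenase, at 25 mg/kg by the intraperitoneal route 24 h before the same surgery. IPC+IRI mice underwent ischemic preconditioning (IPC), a clamping of both pedicles for 15 min, 7 days before the same surgery. Hemin mice received hemin without ischemia. The sources state 1 dose, 25 mg/kg, for hemin in general, and give no separate time of death for mice without surgery. The labels give 4 numbered replicates in each group without naming the animals, so p-values measure the spread between these samples.

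Toll receptors are membrane proteins that recognize microbial products and molecules set free by damaged cells. Tlr2 and Tlr4 sit at the cell surface, Cd14 hands ligands to them, and Tlr3 senses double-stranded RNA inside endosomes. Most of them signal through the adaptor Myd88 to NF-kappaB, Tlr3 being the exception that uses another adaptor, while Irak3 lacks kinase activity and holds this signal back. Nod1 and Nod2 are cytosolic sensors of bacterial cell wall fragments. S100a8 and S100a9 form a calcium-binding complex, abundant in neutrophils and monocytes, that acts as an alarmin on Tlr4 once released. In the kidney, Tlr2 and Tlr4 are known from tubular cells as well as from leukocytes.

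The 250 bases upstream of the start site are shown for Tlr2, which was higher in all treated groups, and for S100a8 and S100a9, whose levels moved together. They are RefSeq windows on build GRCm38.p6, written 5′ to 3′ on the strand of the gene, with matches to the NF-kappaB consensus in capitals. The Tlr2 window lies at chr3:83841609-83841858 on the minus strand, that of S100a8 at chr3:90668821-90669070 on the plus strand, and that of S100a9 at chr3:90695722-90695971 on the minus strand.
Tlr2: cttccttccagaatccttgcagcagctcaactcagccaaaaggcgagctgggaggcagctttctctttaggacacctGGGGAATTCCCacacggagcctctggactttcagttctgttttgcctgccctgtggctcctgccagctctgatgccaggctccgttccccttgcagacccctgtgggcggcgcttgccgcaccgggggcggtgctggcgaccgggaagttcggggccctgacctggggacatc
S100a8: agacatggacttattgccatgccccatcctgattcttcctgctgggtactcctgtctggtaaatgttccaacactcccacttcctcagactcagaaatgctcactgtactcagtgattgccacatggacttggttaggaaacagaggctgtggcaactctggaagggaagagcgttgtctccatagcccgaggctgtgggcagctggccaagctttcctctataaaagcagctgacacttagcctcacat
S100a9: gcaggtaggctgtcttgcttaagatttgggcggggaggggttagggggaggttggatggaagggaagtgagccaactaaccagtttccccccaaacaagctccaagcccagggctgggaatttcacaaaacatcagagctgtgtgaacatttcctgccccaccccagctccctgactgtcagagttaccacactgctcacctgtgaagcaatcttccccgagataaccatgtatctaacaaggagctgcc

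Overlapping NF-kappaB matches on both strands began at positions -173 and -172 relative to the start of Tlr2. Windows of 300 bases, which run 50 bases past the start, were in the table for 8 of the 10 genes, and the NF-kappaB consensus occurred in those of 2 of them, Tlr2 and Tlr3. The same consensus occurred in 8.46% of all 32851 windows. The AP-1 motif TGANTCA, searched on both strands, was in 0 of the windows of these 8 genes and in 7.81% of all windows.

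Levels are given as log2 expression, the log2 of the background-subtracted signal divided by the 75th percentile of the array, so that 0 marks the 75th percentile and negative values lie under it. This percentile ranged from 147 to 358 intensity units, and 57.4% to 67.4% of gene names were well above background, a flag of the scanner software. Both moved with the groups: on the IRI arrays 57.4% to 62.1% of gene names were flagged, under the 63.3% to 64.1% on the Control arrays, and the percentile was 256 to 323 on the Hemin arrays, over the 147 to 221 on the Control arrays. Their part in the results was not tested. Because the 5 slides held 1 group each, an effect of the slide cannot be told apart from that of the group. Control and IRI were scanned on the same day, and the groups of every other comparison on different days. Hmox1, which encodes heme oxygenase and which hemin was given to induce, differed between IRI and Control by 4.67 (SE 0.47, adjusted p = 5.25e-07) on the log2 scale, where SE is the standard error, whereas hemin alone gave 0.56 (SE 0.47, adjusted p = 0.362) with overlapping groups. All 10 markers of kidney epithelium were well above background on every array. Their summed level, in units of the 75th percentile, was 1226 on IRI+Hemin replicate 4 and 585 to 823 on the other 19 arrays. That array also had a percentile of 174 and 60.1% of gene names flagged, where the other 3 of its group had 251 to 358 and 64.7% to 66.5%. It was the lowest of its group for S100a8, S100a9, Cd14, Irak3, Tlr2, Tlr4 and Myd88 and the highest for Nod1. The repeated spots of the Tlr4 and Myd88 probes varied most on this array, with an SD of 0.63 and 0.33 on the log2 scale. Without this array S100a8, S100a9, Cd14 and Irak3 differed from Control in IRI+Hemin by 3.96, 4.30, 3.05 and 1.72 on the log2 scale, and among the 10 genes 1 call changed, that of Nod1 in IRI+Hemin against IRI.

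In the comparison of IRI with Control, 6 of the 10 genes were higher (S100a8, S100a9, Cd14, Irak3, Tlr2 and Myd88) beside 17% of all genes tested, and 1 was lower (Tlr3) beside 33.7%. IRI+Hemin against Control gave 6 higher, the same as in IRI, beside 24.4%, and 2 lower, Tlr3 and Nod2, beside 33.2%. In IPC+IRI, 5 were higher than in Control beside 23.1% and 1 was lower beside 32.6%, Irak3 being the gene that was not called. Hemin alone against Control gave 2 higher, Tlr2 and Nod1, beside 18.4%, and 1 lower, Nod2, beside 17.6%. Calls required limma's adjusted p to be below 0.05, whatever the size of the change. All 10 genes passed the filter on dim genes in each comparison, although S100a8 entered the comparisons of injured groups with Control through the injured arrays, being well above background on 2 of 4 Control arrays.

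Between the injured groups the counts were smaller. IRI+Hemin against IRI gave 2 higher, Tlr2 and Nod1, beside 26.1% of all genes, and 2 lower, Tlr3 and Nod2, beside 18%. IPC+IRI against IRI gave 1 higher, Tlr2, beside 26%, and 1 lower, Irak3, beside 17.7%. Counts of 1 or 2 among 10 lie near these shares of all genes. IPC+IRI against IRI+Hemin gave 2 higher, Tlr3 and Nod2, beside 6.21%, and 0 lower by limma beside 5.44%, with 1 lower (Myd88) at an unadjusted p below 0.05. In the interaction, which asks whether the change with hemin differed between injured and uninjured kidney, limma called 0 of 10 genes in either direction, beside 5.83% higher and 1.94% lower of all genes, and 0 had an unadjusted p below 0.05. The median log2 fold change of the 10 genes was 0.96 in IRI, 1.10 in IRI+Hemin and 0.48 in IPC+IRI against Control, where the medians of all genes tested were -0.17, -0.10 and -0.087. IRI, IRI+Hemin, IPC+IRI and Hemin share the Control arrays in these comparisons, and the comparisons with IRI share the IRI arrays.

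**Figure D1:**
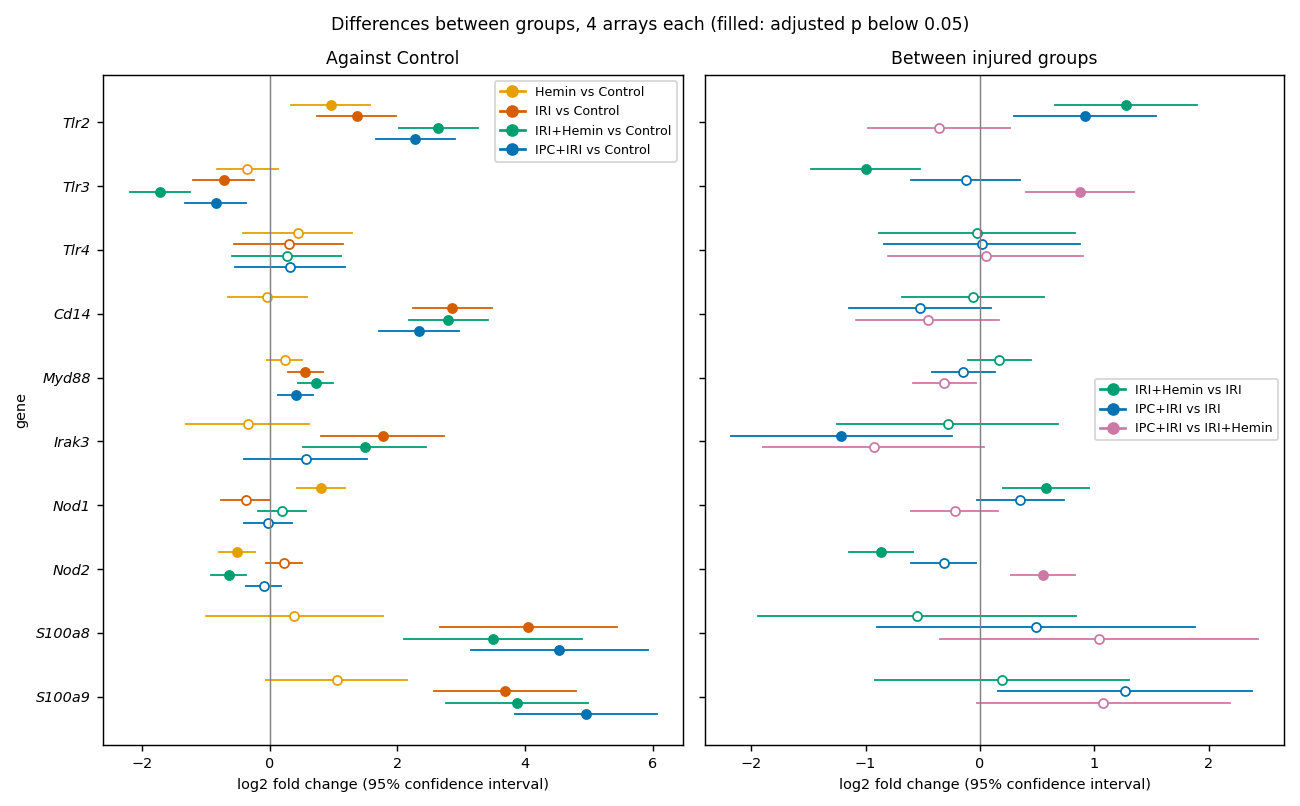
Log2 fold change of each gene (x axis) with its 95% confidence interval from limma, for 4 comparisons with Control (left) and 3 between injured groups (right), 4 arrays a group. Filled points passed an adjusted p of 0.05. S100a8 and S100a9 lie between 3.50 and 4.95 in the 3 injured groups against Control, and all intervals of Tlr4 include 0.

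S100a8 and S100a9 encode the subunits of calprotectin and were called as higher in each injured group against Control. The probe of S100a8 (NM_013650) lies on chromosome 3 from 90473778 to 90473837 and that of S100a9 (NM_009114) on the same chromosome from 90496585 to 90496644, positions on build mm9 as the array files give them. S100a9 was -2.66, -1.32, -1.25 and -1.66 on the 4 Control arrays and -1.46, -1.38, 0.42 and -0.28 on the 4 Hemin arrays. It was 2.33, 2.71, 1.76 and 1.04 in IRI, 2.16, 3.03, 2.52 and 0.89 in IRI+Hemin and 2.50, 3.74, 4.07 and 2.60 in IPC+IRI. All 12 injured arrays lay above all 8 uninjured arrays, and Hemin replicate 3 was the highest of the uninjured. Against Control the log2 fold change was 3.68 in IRI (SE 0.53, adjusted p = 2.16e-05), or 12.8-fold. The corresponding values were 3.87 in IRI+Hemin (SE 0.53, adjusted p = 1.03e-05) and 4.95 in IPC+IRI (SE 0.53, adjusted p = 1.04e-06), or 31-fold.

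For S100a8 the arrays read -5.21, -4.55, -3.44 and -4.01 in Control and -5.25, -4.54, -2.53 and -3.36 in Hemin. Control replicates 1 and 2 and Hemin replicate 1 were not well above background. In the injured groups S100a8 was 0.72, 0.48, -0.61 and -1.59 in IRI, -0.79, 0.15, -0.38 and -2.19 in IRI+Hemin and -0.81, 0.98, 1.16 and -0.38 in IPC+IRI, where each of the 12 arrays was above background. The groups did not overlap with Control, and replicate 4 was the lowest array in both IRI and IRI+Hemin, as it was for S100a9. Since the Control level was partly below background and S100a8 was admitted to these tests by the injured arrays, the sizes that follow are uncertain. The log2 fold change against Control was 4.05 in IRI (SE 0.66, adjusted p = 7.71e-05), 3.50 in IRI+Hemin (SE 0.66, adjusted p = 0.00024) and 4.54 in IPC+IRI (SE 0.66, adjusted p = 2.25e-05). With the normexp background correction, which draws dim values together, these 3 changes were 1.57, 1.32 and 1.86 and were still called.

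Neither hemin nor preconditioning gave a called difference in the alarmins. S100a9 in IPC+IRI against IRI differed by 1.27 (95% confidence interval 0.16 to 2.38, adjusted p = 0.0591), with 4 of the other settings and the omission of any of 3 arrays that brought the adjusted p below 0.05, among them IPC+IRI replicate 1 at 1.51 (adjusted p = 0.0427). S100a8 in the same comparison differed by 0.49 (interval -0.90 to 1.88, adjusted p = 0.566). IRI+Hemin against IRI gave 0.19 for S100a9 (interval -0.92 to 1.30) and -0.55 for S100a8 (interval -1.94 to 0.84). A 2-fold decrease of S100a8 lay within its interval. Hemin alone gave 1.05 for S100a9 (interval -0.062 to 2.16, adjusted p = 0.129, and 0.0225 with no normalization) and 0.38 for S100a8 (interval -1.0 to 1.77, adjusted p = 0.681).

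In whole tissue, more cells that carry a transcript and more RNA per cell cannot be told apart. The summed neutrophil markers were higher on the injured arrays than on the Control arrays. The 1 marker well above background in both IRI and Control, Mpo, was lower in IRI (-0.74). The levels of 14 neutrophil markers, summed on the linear scale in units of the 75th percentile, were 0.39, 0.443, 0.431 and 0.322 in Control, 0.369, 0.484, 0.354 and 0.321 in Hemin and 0.861, 1.19, 0.729 and 0.622 in IRI. They were 0.682, 1.28, 0.879 and 0.453 in IRI+Hemin and 0.525, 1.38, 1.85 and 0.859 in IPC+IRI. All injured arrays were above all Control arrays, and replicate 4 in IRI and IRI+Hemin and replicate 1 in IPC+IRI were the lowest of their groups. Of the 14 markers, 9 were above background on no Control array, 4 on no IRI array, 2 on no IRI+Hemin array and 1 on no IPC+IRI array, and Elane, the neutrophil elastase gene, was on no array of any group.

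Of the 3 neutrophil markers bright enough to test in IRI against Control, 2 were higher and 1 was lower. The higher ones, Retnlg and Il1r2, were well above background on no Control array and have no fold here, and the lower one was Mpo, the myeloperoxidase gene (-0.74, SE 0.21, adjusted p = 0.00728). These 3 were named after their values were seen. In IRI+Hemin 4 of 8 tested were higher than in Control and 0 lower, and in IPC+IRI 5 of 8 were higher and 1, Mpo, lower. All of these but Mpo entered the tests through the injured arrays, so the counts of higher markers give no support of their own. Monocyte and macrophage markers, 13 in number, summed to between 6.36 and 9.27 in Control, 7.55 and 10.4 in IRI, 7.79 and 13.3 in IRI+Hemin and 7.05 and 8.95 in Hemin. In IPC+IRI the sum was 8.19, 23.8, 31.6 and 15.3, so 3 of its 4 arrays exceeded every other array. Cx3cr1 was well above background on no IRI array, and every other marker of this list was so on at least 1 array of each group. The part that leukocyte content has in the changes of S100a8, S100a9, Cd14 and Tlr2 was not tested.

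**Figure D2:**
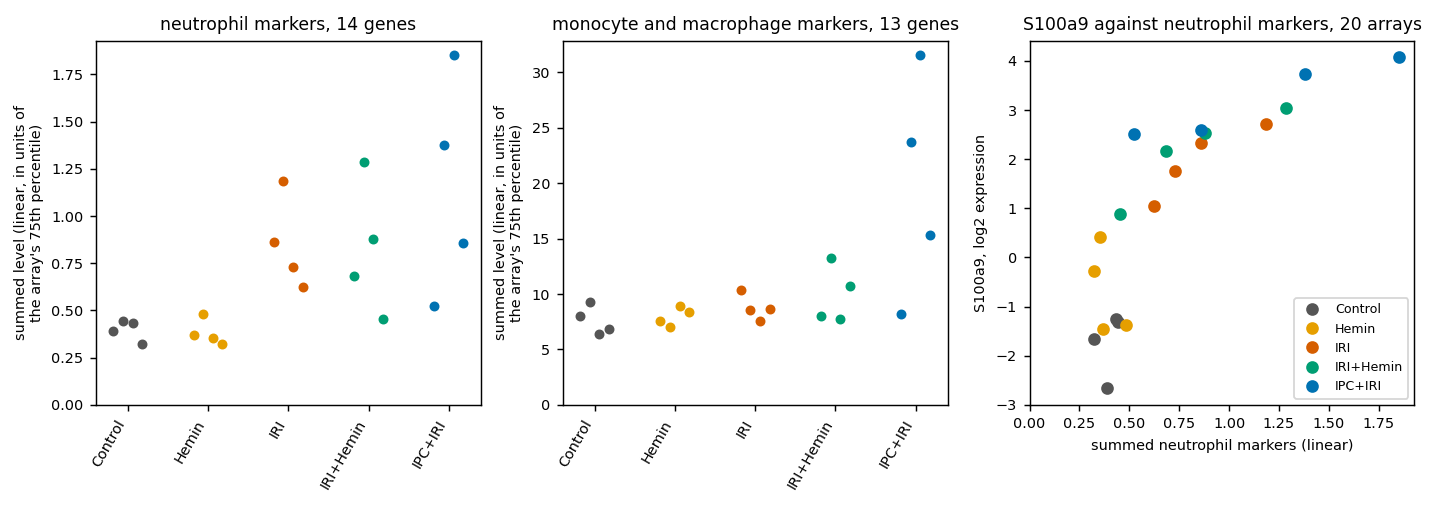
Summed level of neutrophil markers (left) and of monocyte and macrophage markers (middle) on each array, linear and in units of the array's 75th percentile, and log2 expression of S100a9 against the neutrophil sum over the 20 arrays (right). Each point is an array. The neutrophil sum is at most 0.443 in Control and at least 0.622 in IRI. The highest S100a9 value, 4.07, lies on the array with the highest neutrophil sum, 1.85. Not all arrays follow this order. IPC+IRI replicate 1 has S100a9 at 2.50 with a sum of 0.525, and IRI replicate 1 has 2.33 with a sum of 0.861.

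Cd14, the co-receptor that carries ligands to Tlr2 and Tlr4, rose in all 3 injured groups and was not called with hemin alone. Its probe (NM_009841) lies on chromosome 18 from 36884969 to 36885028 on mm9. The log2 expression was -0.77, -1.03, -1.33 and -1.24 in Control and -1.19, -1.20, -0.90 and -1.21 in Hemin. It was 1.55, 2.17, 1.51 and 1.85 in IRI, 1.70, 2.24, 1.96 and 0.93 in IRI+Hemin and 0.33, 1.53, 1.99 and 1.14 in IPC+IRI. Every injured array was above every uninjured array, with IPC+IRI replicate 1 the lowest of the injured. The log2 fold change against Control was 2.86 in IRI (SE 0.30, adjusted p = 7.55e-07), 2.80 in IRI+Hemin (SE 0.30, adjusted p = 8.19e-07) and 2.34 in IPC+IRI (SE 0.30, adjusted p = 5.85e-06). The increase of 7.25-fold in IRI had the lowest adjusted p among the 10 genes in that comparison. Hemin alone gave -0.037 (95% confidence interval -0.66 to 0.58).

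IPC+IRI against IRI gave -0.52 for Cd14 (interval -1.14 to 0.10, adjusted p = 0.161), and without IPC+IRI replicate 3 this became -0.77 (adjusted p = 0.0427). IRI+Hemin against IRI gave -0.063 (interval -0.69 to 0.56).

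Tlr2, a receptor for lipoproteins and for products of damaged cells, was the single gene of the 10 called as higher in each of 6 comparisons. It was measured by 1 probe (NM_011905, chromosome 3 from 83640344 to 83640403 on mm9) present in 10 copies on each array, whose copies had a median SD of 0.068 on the log2 scale. The gene read -2.37, -2.39, -2.88 and -2.70 in Control, -1.64, -1.85, -1.63 and -1.42 in Hemin and -0.56, -0.90, -1.77 and -1.67 in IRI. In IRI+Hemin it was -0.019, 0.22, 0.19 and -0.18, and in IPC+IRI -1.36, -0.12, 0.12 and 0.14. The groups rose in the order Control, IRI and IRI+Hemin without overlap, and Hemin lay above Control and overlapped IRI. In IPC+IRI 3 arrays were at the level of IRI+Hemin and replicate 1 was within the range of IRI.

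The log2 fold change of Tlr2 against Control was 1.36 in IRI (SE 0.29, adjusted p = 0.000968), 2.64 in IRI+Hemin (SE 0.29, adjusted p = 1.41e-06) and 2.28 in IPC+IRI (SE 0.29, adjusted p = 7.25e-06). Tlr2 was higher in Hemin than in Control by 0.95 (SE 0.29, adjusted p = 0.0182), or 1.94-fold. IRI+Hemin was higher than IRI by 1.28 (SE 0.29, adjusted p = 0.00214), and the interaction was 0.33 (interval -0.55 to 1.20, adjusted p = 0.703). IPC+IRI was higher than IRI by 0.92 (SE 0.29, adjusted p = 0.0176), a call with overlapping groups. This last call ended when the fit held only the arrays compared (adjusted p = 0.0892) and on leaving out any one of IRI replicates 3 and 4 and IPC+IRI replicates 3 and 4 (values of 0.74 to 0.78). With the normexp background correction the changes against Control were smaller and still called in the injured groups, at 0.65 (adjusted p = 0.0364) in IRI, 1.55 in IRI+Hemin and 1.27 in IPC+IRI. The change with hemin alone was 0.25 (adjusted p = 0.369) after normexp and 0.85 (adjusted p = 0.0577) without Control replicate 3.

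**Figure D3:**
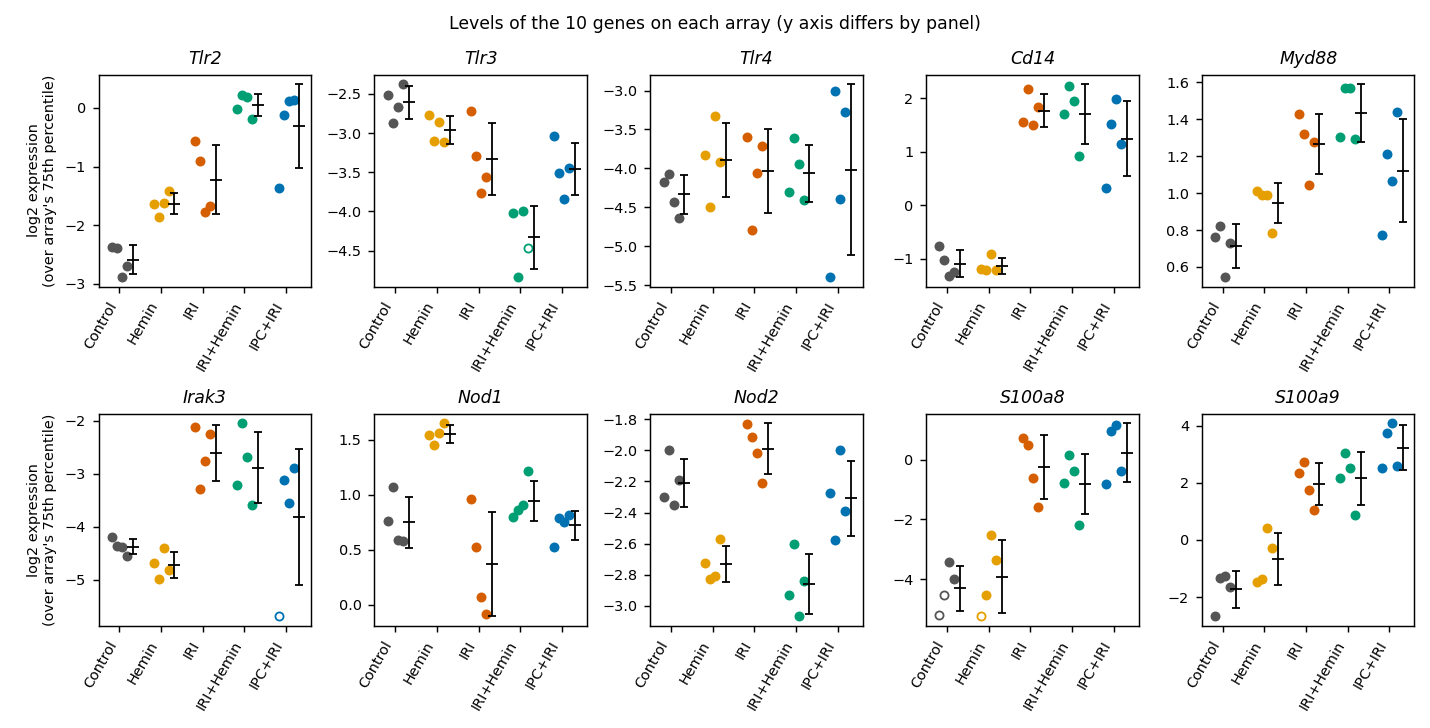
Log2 expression of the 10 genes over the 75th percentile of the array, by group, 1 point for each of 4 arrays, with the mean and SD beside them as a black dash with whiskers. Open points were not well above background, and the y axis differs by panel. Tlr2 runs from -2.88 to -2.37 in Control up to -0.18 to 0.22 in IRI+Hemin, whereas the 5 groups of Tlr4 overlap.

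Tlr4, the receptor of lipopolysaccharide and of calprotectin, was not called in any comparison. The arrays ranged over -4.63 to -4.08 in Control, -4.49 to -3.33 in Hemin, -4.79 to -3.59 in IRI, -5.39 to -3.01 in IPC+IRI and -4.41 to -3.61 in IRI+Hemin. IPC+IRI had both the lowest and the highest array of the 20. Against Control the log2 fold change was 0.29 in IRI (interval -0.56 to 1.15), 0.27 in IRI+Hemin (interval -0.59 to 1.12), 0.31 in IPC+IRI (interval -0.54 to 1.17) and 0.44 in Hemin (interval -0.42 to 1.29). A 2-fold increase lay within each of these intervals. Leaving out single arrays moved the value of IPC+IRI against Control between -0.022 and 0.77, without a call.

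Tlr4 is an average of 2 probes. The probe A_51_P300806 (NM_021297, chromosome 4 from 66503724 to 66503782 on mm9) is present in 10 copies and was well above background on all 20 arrays. The probe A_52_P24230, annotated to the transcript AK014533 and placed from 66590556 to 66590615, was well above background on no array. On its own the first probe differed from Control by 0.47 in IRI, 0.67 in Hemin, 0.50 in IPC+IRI and 0.49 in IRI+Hemin, without a call when it was taken as the brightest probe (lowest adjusted p 0.259 in the 4 comparisons).

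Tlr3, the endosomal receptor for double-stranded RNA, was the only one of the 10 genes that was lower in all 3 injured groups. Its level was -2.52, -2.87, -2.67 and -2.37 in Control, -2.76, -3.10, -2.86 and -3.12 in Hemin and -2.71, -3.29, -3.76 and -3.56 in IRI. It was -4.01, -4.84, -4.0 and -4.47 in IRI+Hemin and -3.04, -3.50, -3.84 and -3.45 in IPC+IRI. The IRI+Hemin arrays were the 4 lowest of the 20, and replicate 1 was the highest array in both IRI and IPC+IRI. Against Control it fell by 1.72 in IRI+Hemin (SE 0.23, adjusted p = 6.98e-06), by 0.85 in IPC+IRI (SE 0.23, adjusted p = 0.004) and by 0.72 in IRI (SE 0.23, adjusted p = 0.0127), where IRI overlapped Control. IRI+Hemin against IRI gave -1.0 (SE 0.23, adjusted p = 0.00183), that is 2-fold lower, without overlap. Preconditioned kidneys were above IRI+Hemin by 0.87 (SE 0.23, adjusted p = 0.0188) and differed from IRI by -0.13 (interval -0.60 to 0.35).

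The fall of Tlr3 in IRI depended on the processing and lost its call in 6 settings. It was -0.098 with normexp, -0.37 after quantile normalization and -0.58 without IRI replicate 3, with adjusted p = 0.835, 0.21 and 0.0512. With no normalization, the brightest probe and the mean of log2 values, the adjusted p was 0.205, 0.212 and 0.0537. The call in IPC+IRI against Control ended in 3 settings, with -0.45 (adjusted p = 0.0804) after normexp, -0.41 (adjusted p = 0.345) with no normalization and -0.75 (adjusted p = 0.215) with the brightest probe. The difference of IRI+Hemin from IRI was -0.64 (adjusted p = 0.149) with no normalization. Both probes of Tlr3 (NM_126166, chromosome 8, from 46481729 to 46481788 and from 46482009 to 46482068 on mm9) had lower means in each injured group than in Control. They differed in size in IRI+Hemin against IRI, with -1.82 for A_52_P85174 and -0.58 for A_51_P291906, and in IPC+IRI against IRI+Hemin, with 1.84 and 0.25 in the same order. The values of A_52_P85174 in IRI+Hemin were -3.96, -7.35, -4.03 and -4.70, and replicates 2 and 4 were not well above background. The change in IRI+Hemin against Control was -0.74 after normexp and -2.60 with the brightest probe, called in both. The call of IPC+IRI against IRI+Hemin ended after normexp (0.29, adjusted p = 0.471), with no normalization, the deposited matrix or the fit of the compared arrays alone (adjusted p = 0.274, 0.0772 and 0.0737), without IRI+Hemin replicate 2 (0.70, adjusted p = 0.0693) and without IPC+IRI replicate 1 (0.73, adjusted p = 0.0588).

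**Figure D4:**
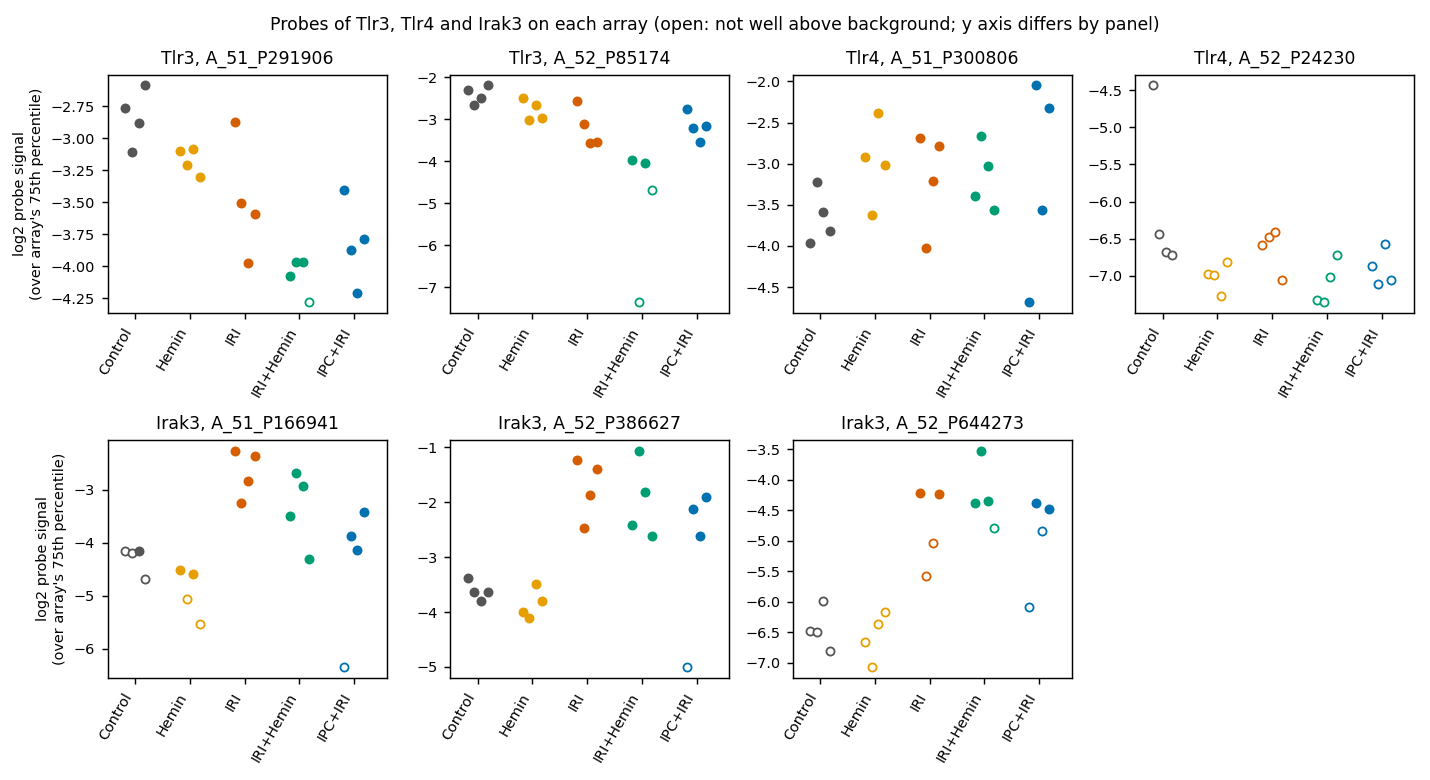
Log2 signal of each probe of Tlr3, Tlr4 and Irak3 over the 75th percentile of the array, by group, 1 point for each array. Open points were not well above background, and the y axis differs by panel. The second probe of Tlr4 is open throughout, and 1 array of IRI+Hemin stands at -7.35 for the Tlr3 probe A_52_P85174.

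Myd88, the adaptor of most Toll receptors and of the interleukin-1 receptor, rose in each injured group by less than 2-fold. Its probe (NM_010851, chromosome 9 from 119245322 to 119245381 on mm9) is present in 10 copies, with a median SD of 0.081 between copies. The 4 arrays ranged over 0.55 to 0.82 in Control, 0.79 to 1.01 in Hemin, 1.04 to 1.43 in IRI, 1.30 to 1.57 in IRI+Hemin and 0.77 to 1.44 in IPC+IRI. IRI and IRI+Hemin did not overlap with Control, and IPC+IRI did through its replicate 1. The log2 fold change was 0.55 in IRI (SE 0.13, adjusted p = 0.00198), 0.72 in IRI+Hemin (SE 0.13, adjusted p = 0.000171) and 0.41 in IPC+IRI (SE 0.13, adjusted p = 0.0137). In the deposited log2 matrix, scaled the same way, it was 0.36 in IRI (adjusted p = 0.0717) and 0.36 in IPC+IRI (adjusted p = 0.0787), and without IPC+IRI replicate 4 the latter was 0.30 (adjusted p = 0.0601). The call in IRI also ended with no normalization between arrays (0.67, adjusted p = 0.0748), and that in IPC+IRI with scaling by detected probes (0.29, adjusted p = 0.0831) and in the fit of the compared arrays alone (adjusted p = 0.0564). Hemin alone gave 0.23 (interval -0.045 to 0.51, adjusted p = 0.177), and 0.80 with no normalization, a call (adjusted p = 0.0239).

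IPC+IRI against IRI+Hemin gave -0.31 for Myd88 (adjusted p = 0.124), which passed without IPC+IRI replicate 4 (-0.42, adjusted p = 0.0478).

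Irak3, the kinase-dead inhibitor of the Myd88 pathway, was higher in IRI and IRI+Hemin. It read -4.20, -4.36, -4.39 and -4.55 in Control, -4.69, -4.98, -4.39 and -4.81 in Hemin and -2.12, -3.29, -2.75 and -2.25 in IRI. In IRI+Hemin it was -3.21, -2.05, -2.69 and -3.59, and in IPC+IRI -5.69, -3.12, -3.56 and -2.89. All arrays of IRI and IRI+Hemin exceeded all uninjured arrays, as did 3 of IPC+IRI, whereas IPC+IRI replicate 1 was the lowest of the 20 arrays and not well above background. The log2 fold change against Control was 1.77 in IRI (SE 0.46, adjusted p = 0.00378), 1.49 in IRI+Hemin (SE 0.46, adjusted p = 0.0102) and 0.56 in IPC+IRI (SE 0.46, adjusted p = 0.312). Without IPC+IRI replicate 1 the value in IPC+IRI was 1.19 (adjusted p = 0.00419), which was called. This array was also the lowest of its group for Tlr2, Tlr4, Cd14, Myd88, Nod1, S100a8 and S100a9, and the highest for Tlr3. Its sums of neutrophil markers (0.525) and of monocyte and macrophage markers (8.19) were the lowest of the group too.

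IPC+IRI against IRI gave -1.21 for Irak3 (SE 0.46, adjusted p = 0.0402), and -0.59 (adjusted p = 0.144) without that array. The same call also ended without IPC+IRI replicate 3 (adjusted p = 0.0524) and without IRI replicate 1, 3 or 4 (adjusted p = 0.105, 0.0599 and 0.0942), and with the brightest probe in place of the mean (adjusted p = 0.0649). It ended too with the mean of log2 values, no normalization and the fit of the compared arrays alone (adjusted p = 0.0605, 0.205 and 0.123). After normexp the difference from Control was 0.59 (adjusted p = 0.0332) in IRI, still a call, and 0.16 (adjusted p = 0.505) in IRI+Hemin, no longer a call. The 3 probes of Irak3 (NM_028679, chromosome 10, between 119578999 and 119580150 on mm9) did not all have a level in Control: A_52_P644273 was well above background on no Control array and A_51_P166941 on 1. The probe with a level on all 4 Control arrays, A_52_P386627, differed from Control by 1.88 in IRI and 0.70 in IPC+IRI. The 3 probes did not give 1 size in IPC+IRI against IRI, where A_51_P166941 gave -1.77, A_52_P386627 -1.18 and A_52_P644273, above background on 2 arrays of each group, -0.19.

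Nod1 and Nod2, the cytosolic receptors for peptidoglycan fragments, moved in opposite directions with hemin. In IRI against Control neither was called, although some other settings called them. Nod1 was 0.76, 1.07, 0.59 and 0.58 in Control, 1.54, 1.45, 1.56 and 1.65 in Hemin and 0.96, 0.52, 0.075 and -0.084 in IRI. It was 0.80, 0.86, 0.91 and 1.21 in IRI+Hemin and 0.53, 0.79, 0.76 and 0.81 in IPC+IRI. The 4 Hemin arrays were the highest of the 20, and the 3 lowest were IRI replicates 4, 3 and 2. Nod1 was higher in Hemin than in Control by 0.80 (SE 0.18, adjusted p = 0.00258), or 1.74-fold, and in IRI+Hemin than in IRI by 0.58 (SE 0.18, adjusted p = 0.015), where IRI replicate 1 overlapped IRI+Hemin. The second call ended without IRI replicate 3, IRI replicate 4 or IRI+Hemin replicate 4 (values 0.48, 0.43 and 0.49, adjusted p = 0.0557, 0.0578 and 0.051) and in the fit of the compared arrays alone (adjusted p = 0.0737). IRI against Control gave -0.38 (interval -0.76 to -0.0031, adjusted p = 0.0861), and -0.58 (adjusted p = 0.00552) without IRI replicate 1, -0.57 (adjusted p = 0.00741) in the deposited matrix and -0.46 (adjusted p = 0.032) with scaling by detected probes, each a call. The comparison of IPC+IRI with IRI gave 0.35 (adjusted p = 0.118), and was called without IRI replicate 1 (0.55, adjusted p = 0.00987), with no normalization (0.67, adjusted p = 0.0313) and in the deposited matrix (0.49, adjusted p = 0.0213). IRI+Hemin against Control was called with no normalization alone (0.68, adjusted p = 0.0228).

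Nod2 was -2.30, -2.0, -2.35 and -2.19 in Control, -2.72, -2.83, -2.81 and -2.57 in Hemin and -1.83, -1.91, -2.02 and -2.21 in IRI. In IRI+Hemin it was -2.93, -2.60, -3.07 and -2.84, and in IPC+IRI -2.28, -2.58, -2.0 and -2.39. Both hemin groups lay below Control and IRI without overlap. Nod2 fell by 0.52 with hemin alone (SE 0.13, adjusted p = 0.00617). IRI+Hemin against IRI gave -0.87 (SE 0.13, adjusted p = 8.32e-05), 1.82-fold lower, and IRI+Hemin against Control gave -0.65 (SE 0.13, adjusted p = 0.00052). The interaction was -0.35 (interval -0.74 to 0.049, adjusted p = 0.291). Preconditioned kidneys exceeded IRI+Hemin by 0.55 (SE 0.13, adjusted p = 0.0137) and gave -0.32 against IRI (adjusted p = 0.0614), with a call without IRI replicate 4 (adjusted p = 0.0331) or IPC+IRI replicate 3 (adjusted p = 0.0187), after quantile normalization (adjusted p = 0.0329) or with scaling by detected probes (adjusted p = 0.0289). IRI against Control gave 0.22 (interval -0.06 to 0.50, adjusted p = 0.18), and 0.46 after quantile normalization, where it was called (adjusted p = 0.00828).

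The direction of Nod2 with hemin alone turned when the arrays were not scaled to each other (0.046, adjusted p = 0.858), a setting that shifted the median of all genes in that comparison by 0.57. The same setting ended the calls of Nod2 in IRI+Hemin against Control (-0.16, adjusted p = 0.524) and against IRI (-0.50, adjusted p = 0.0519), and normexp ended those in Hemin against Control (-0.40, adjusted p = 0.0767) and in IPC+IRI against IRI+Hemin (0.33, adjusted p = 0.262). The last of these also ended with no normalization (adjusted p = 0.252) and in the fit of the compared arrays alone (adjusted p = 0.085). The probe of Nod1 (NM_172729) lies on chromosome 6 from 54874007 to 54874066 and that of Nod2 (NM_145857) on chromosome 8 from 91212170 to 91212224, on mm9. Each NOD receptor rests on a single probe with 1 spot an array, so agreement between probes cannot be given.

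The counts of genes called in lists of related genes are to be read against the shares of all genes, which were 17% higher and 33.7% lower in IRI, 24.4% and 33.2% in IRI+Hemin, 23.1% and 32.6% in IPC+IRI and 18.4% and 17.6% in Hemin against Control. Against IRI these shares were 26.1% and 18% in IRI+Hemin and 26% and 17.7% in IPC+IRI. The division of these shares into higher and lower depends on the scaling of the arrays. Of 18 output genes of Toll signaling, cytokines, adhesion molecules and NF-kappaB subunits, IRI against Control gave 14 higher and 0 lower of 14 tested, IRI+Hemin 12 higher and 0 lower of 14 tested and IPC+IRI 13 higher and 0 lower of 14 tested. Of the 14, 4 entered these tests through the injured arrays, Il6, Cxcl2 and Ptgs2 being above background on no Control array and Cxcl1 on 1. Over the genes well above background on at least 3 arrays of both groups, the counts were 10 higher and 0 lower of 10 in IRI, 8 higher and 0 lower of 10 in IRI+Hemin and 9 higher and 0 lower of 10 in IPC+IRI, with a median log2 fold change of 1.98 in IRI. Ccl2, a monocyte chemokine, was higher in IRI by 4.83 (SE 0.46, adjusted p = 2.83e-07). Icam1, an adhesion molecule for leukocytes, was higher by 2.22 (SE 0.20, adjusted p = 1.31e-07). Relb, an NF-kappaB subunit, was higher by 2.51 (SE 0.18, adjusted p = 1.50e-08). Against IRI, IRI+Hemin gave 0 higher and 6 lower of 14 tested and IPC+IRI 0 higher and 4 lower of 14 tested, with Ccl2 at -2.06 (SE 0.46, adjusted p = 0.00158) and -1.86 (SE 0.46, adjusted p = 0.00349). Hemin alone gave 1 higher and 0 lower of 11 tested, the gene being Cxcl1, a neutrophil chemokine that was named after its value was seen. It was tested through the Hemin arrays alone, being well above background on 1 of 4 Control arrays, and is given no fold here. Some genes of these lists were also picked by the study from the same samples, so their counts are not independent evidence.

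Genes listed as inhibitors of Toll signaling, other than Irak3, gave 10 higher and 0 lower of 14 tested in IRI against Control, 7 higher and 1 lower of 14 tested in IRI+Hemin and 7 higher and 0 lower of 14 tested in IPC+IRI. The list was set by name and held Nfkbiz and Peli1, whose part as inhibitors was not tested. Atf3, a stress-induced repressor, had the largest change, 5.57 (SE 0.58, adjusted p = 8.55e-07) in IRI. Tnfaip3, which removes ubiquitin chains from signaling proteins, was higher by 2.30 (SE 0.19, adjusted p = 5.15e-08) in IRI and was lower in IRI+Hemin than in IRI (-0.67, SE 0.19, adjusted p = 0.00751). With hemin before injury, the comparison with IRI gave 0 higher and 6 lower of 14 tested, and IPC+IRI against IRI 0 higher and 3 lower of 14 tested, Dusp1, a phosphatase of MAP kinases, being lower in both (-1.26 and -1.31). Hemin alone gave 2 higher and 1 lower of 14 tested.

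Adaptors and kinases gave 6 higher and 3 lower of 19 tested in IRI, 3 higher and 4 lower of 19 tested in IRI+Hemin, 1 higher and 3 lower of 19 tested in IPC+IRI and 1 higher and 4 lower of 19 tested in Hemin, each against Control. Among genes well above background in both groups the count in IRI was 6 higher and 2 lower of 18. In IRI+Hemin, IPC+IRI and Hemin the shares of this list called as higher were below those of all genes. Tirap, which links Tlr2 and Tlr4 to Myd88, was higher in IRI by 0.71 (SE 0.17, adjusted p = 0.00199), and Irak4, the kinase bound by Myd88, was lower (-0.50, SE 0.19, adjusted p = 0.0346). The counts were 1 higher and 7 lower of 19 tested in IRI+Hemin against IRI, and IPC+IRI against IRI 0 higher and 6 lower of 19 tested. Traf6, a ubiquitin ligase that receives the signal from the IRAK kinases, was lower in both, at -0.64 (SE 0.13, adjusted p = 0.000655) and -0.57 (SE 0.13, adjusted p = 0.00163).

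Among ligand carriers and co-receptors other than Cd14, IRI gave 2 higher and 1 lower of 7 tested, IRI+Hemin 3 higher and 0 lower of 8 tested, IPC+IRI 2 higher and 1 lower of 8 tested and Hemin 0 higher and 1 lower of 9 tested against Control. Part of these genes entered through 1 group alone, and among those well above background in both groups the counts were 2 higher and 1 lower of 6 in IRI, 2 higher and 0 lower of 6 in IRI+Hemin, 1 higher and 1 lower of 6 in IPC+IRI and 0 higher and 0 lower of 6 in Hemin. Cd44, a receptor for hyaluronan, was higher in IRI by 2.11 (SE 0.30, adjusted p = 2.07e-05). Ly96, whose product binds lipopolysaccharide together with Tlr4, was higher than in IRI by 0.64 (SE 0.18, adjusted p = 0.0081) in IRI+Hemin and 0.61 (SE 0.18, adjusted p = 0.0109) in IPC+IRI, and Lbp, the binding protein of lipopolysaccharide, by 1.49 (SE 0.30, adjusted p = 0.000807) in IRI+Hemin. This list had 2 higher and 2 lower of 7 tested in IRI+Hemin against IRI, and IPC+IRI against IRI 4 higher and 1 lower of 7 tested, or 2 higher and 2 lower of 6 and 3 higher and 1 lower of 6 with both groups above background. Of the other Toll receptors, 6 of 9 were matched to the array and few were bright enough to test: IRI gave 1 higher and 1 lower of 3 tested, IRI+Hemin 0 higher and 1 lower of 3 tested, IPC+IRI 2 higher and 1 lower of 4 tested and Hemin 0 higher and 1 lower of 4 tested against Control. One of those higher in IPC+IRI, Tlr6, was well above background on no Control array, and with both groups above background the count was 1 higher and 1 lower of 3. Tlr9, the endosomal receptor for CpG DNA, was lower in IRI (-0.68, SE 0.11, adjusted p = 8.65e-05), IRI+Hemin (-0.57), IPC+IRI (-0.82) and Hemin (-0.43).

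NOD-like receptors and their partners gave 3 higher and 9 lower of 14 tested in IRI, 4 higher and 4 lower of 16 tested in IRI+Hemin, 5 higher and 3 lower of 15 tested in IPC+IRI and 3 higher and 1 lower of 14 tested in Hemin against Control. Among the lower genes in IRI, Naip5 and Naip6 were tested through the Control arrays alone, being well above background on no IRI array. With both groups above background the counts were 3 higher and 7 lower of 12 in IRI, 4 higher and 3 lower of 13 in IRI+Hemin, 5 higher and 3 lower of 14 in IPC+IRI and 3 higher and 0 lower of 13 in Hemin. Birc3, an inhibitor of apoptosis that also acts in NOD signaling, was higher in IRI by 1.65 (SE 0.13, adjusted p = 4.16e-08), and Nlrp6, an inflammasome receptor, was lower (-1.05, SE 0.27, adjusted p = 0.00338). Pycard, the inflammasome adaptor, was lower in IRI than in Control (-0.95, SE 0.25, adjusted p = 0.00432) and higher than in IRI in both IRI+Hemin (1.02, SE 0.25, adjusted p = 0.0033) and IPC+IRI (1.39, SE 0.25, adjusted p = 0.000333). The list had 3 higher and 0 lower of 15 tested in IRI+Hemin against IRI, and IPC+IRI against IRI 4 higher and 0 lower of 15 tested, or 3 higher and 0 lower of 12 and 3 higher and 0 lower of 12 with both groups above background. Naip1, Naip2, Naip5 and Naip6 are near-identical copies, so their single values are uncertain.

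Other alarmins and ligands of Toll receptors gave 9 higher and 1 lower of 18 tested in IRI, 8 higher and 1 lower of 18 tested in IRI+Hemin, 8 higher and 1 lower of 18 tested in IPC+IRI and 2 higher and 1 lower of 17 tested in Hemin against Control. Among the genes above background in both groups the counts were 8 higher and 0 lower of 16 in IRI, 7 higher and 1 lower of 16 in IRI+Hemin, 7 higher and 0 lower of 16 in IPC+IRI and 2 higher and 0 lower of 16 in Hemin. Hspb1, a small heat shock protein, was higher in IRI by 2.60 (SE 0.29, adjusted p = 1.42e-06). Tnc, a matrix glycoprotein that activates Tlr4, was higher in IRI by 2.55 (SE 0.46, adjusted p = 0.000199) and lower in IRI+Hemin than in IRI (-2.09, SE 0.46, adjusted p = 0.00149). IRI+Hemin against IRI gave 2 higher and 5 lower of 17 tested, and IPC+IRI against IRI 5 higher and 2 lower of 17 tested. The other S100 genes gave 4 higher and 2 lower of 12 tested in IRI, 4 higher and 3 lower of 12 tested in IRI+Hemin, 4 higher and 3 lower of 12 tested in IPC+IRI and 2 higher and 4 lower of 12 tested in Hemin against Control. In IRI the count was 4 higher and 1 lower of 11 with both groups above background. In IRI+Hemin and IPC+IRI these counts lie near the shares of all genes. S100a10, a partner of annexin A2, was higher in IRI by 2.23 (SE 0.19, adjusted p = 7.31e-08), and S100a3 was lower in IRI (-1.30, SE 0.23, adjusted p = 0.000172), IRI+Hemin (-0.76, SE 0.23, adjusted p = 0.00926), IPC+IRI (-2.13, SE 0.23, adjusted p = 1.26e-06) and Hemin (-2.21, SE 0.23, adjusted p = 1.60e-05).

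**Figure D5:**
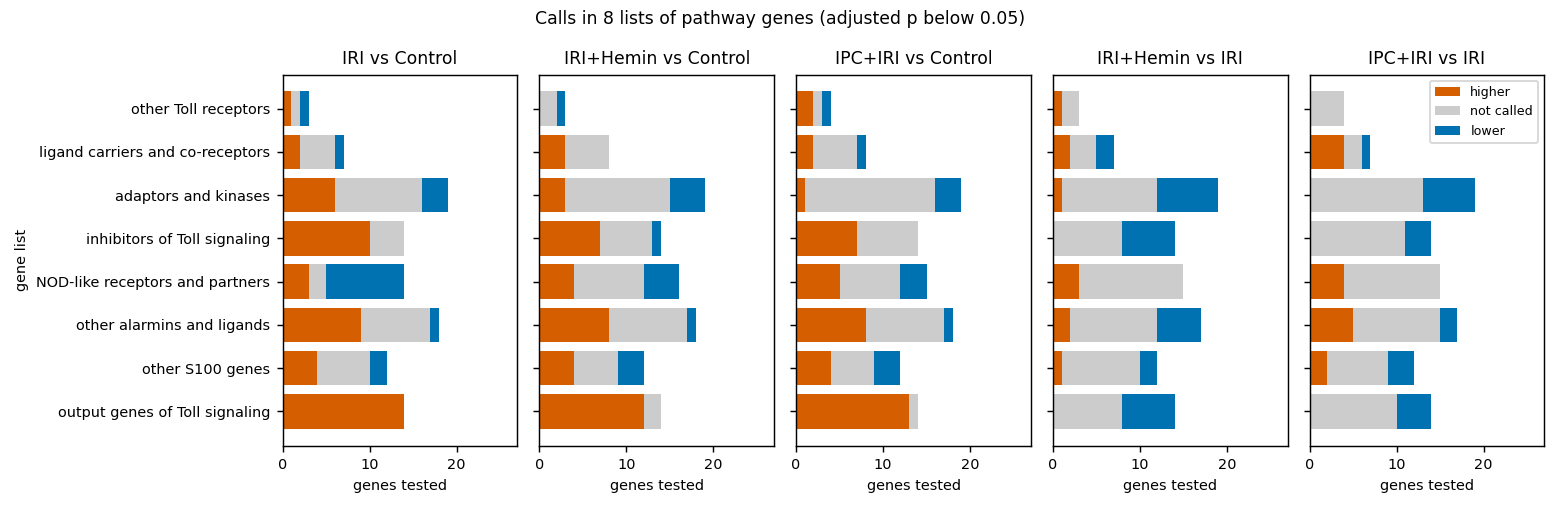
Number of genes tested (x axis) in each of 8 lists, divided into those higher, lower and not called at an adjusted p of 0.05 in limma, for 5 comparisons. The bar of the output genes of Toll signaling is wholly in the higher color in IRI against Control, 14 of 14, and holds 6 lower of 14 in IRI+Hemin against IRI.

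Over the 20 arrays, the gene most like S100a8 among 17645 compared was S100a9, with a Pearson correlation of 0.98, and the reverse held too. The next for S100a8 were Ptpn22 (r = 0.95) and Hdc (r = 0.94), the latter encoding histidine decarboxylase, and for S100a9 Hdc (r = 0.96) and Crlf2 (r = 0.96). Those nearest to Cd14 were LOC676546 (r = 0.98), Efhd2 (r = 0.98), Ch25h (r = 0.98), and to Tlr2 Ankrd11 (r = 0.96), Specc1 (r = 0.95), AK046587 (r = 0.94). Myd88 was nearest to Tmem173 (r = 0.93), Prkaa1 (r = 0.92), Jam2 (r = 0.92). For Irak3 they were Masp1 (r = 0.95), Entpd1 (r = 0.95), Loxl1 (r = 0.94), and for Tlr3 C230091D08Rik (r = 0.95), Dpy19l4 (r = 0.94), Pgrmc2 (r = 0.92). Among those nearest to Nod1 were Rabep2 (r = 0.92) and 4932417H02Rik (r = 0.92), and Nod2 was nearest to Inmt (r = 0.87), Anxa4 (r = 0.87), EG627488 (r = 0.86). Tlr4 had the weakest likeness, with Fam105a (r = 0.85), Abcg1 (r = 0.82), Bace2 (r = 0.82). These correlations describe patterns over 5 groups on 5 slides that the 20 arrays share, and they carry no test.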

How the data were processed

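Kidney RNA of 20 samples was hybridized with Cy3 to Agilent 4x44K arrays. The authors deposited scanner files holding intensity values, background-subtracted by Feature Extraction 9.5.3.1 per the file headers, and a matrix of log2 values, which served as an alternative. Outlier spots were removed here, the spots of each probe averaged and the values scaled to the 75th percentile of the array, after which the probes sharing a gene name were averaged and log2 was taken. A gene was tested when at most 1 array lacked a value and at least 3 of 4 arrays of either group were well above background. limma 3.58.1 in R 4.3.3 was fitted to all 20 arrays with Benjamini-Hochberg adjustment for each comparison, and calls were made at an adjusted p below 0.05. The fit was also run on simulated data, whose outcome is not given here. The significance analysis of the study was not rerun, and limma takes its place. Subtraction leaves dim values noisy on the log2 scale, and the 4 arrays of a group limit the precision.

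All 10 genes are named in each comparison. Of each list, at most 4 called genes of each comparison could be named, by size of change among genes well above background on all arrays compared and with groups that did not overlap, and for each of the 10 genes the 3 with the highest correlation, of which 1 is not reported here. The genes and lists were chosen with earlier results of these data known. Alternatives were normexp, quantile or no normalization, scaling by detected probes, other summaries of probes, the deposited matrix, other filters, a 2-fold limit, a fit of the compared arrays, the replicate number as a block, and leaving out each array. Tlr11, Tlr12, Tlr13, Card9, Nlrc5 and Ly6g and the exon or UTR under each probe were not analysed here.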

Additional observations from a re-analysis of the deposited data

Results flagged for a closer look

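A gap test for small groups (Dixon) was applied to each of the 10 genes in each group, 50 tests in all, of which chance flags about 1 in 20. It marked 2 arrays, both in Hemin. Cd14 on Hemin replicate 3 was -0.903, above the other 3 arrays at -1.21 to -1.19. Myd88 on Hemin replicate 4 was 0.786, below the other 3 at 0.99 to 1.01. Cd14 and Myd88 were not called in Hemin vs Control, and leaving out either array did not bring a call (-0.11, adjusted p = 0.826 for Cd14, and 0.28, adjusted p = 0.138 for Myd88).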

How the results depend on the processing

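Of 32 calls among the 10 genes, 13 held in each refit and filter that was run, other than the 2-fold limit: Cd14, S100a9 and Tlr2 in the 3 injured groups against Control, Irak3 in IRI, Myd88 in IRI+Hemin against Control, Tlr2 in IRI+Hemin against IRI and Nod1 in Hemin against Control, of which that of Myd88 and that of Nod1 are under 2-fold. The deposited matrix gave no value for 4 of the 13, those of S100a9 and Irak3. The calls of S100a8 in the 3 injured groups and of Tlr3 in IRI+Hemin against Control held in each refit and were not tested under the strict filter. S100a8 was admitted to those refits by the injured arrays, so holding in them gives no support of its own. Nod2 in Hemin against Control turned from lower to 0.046 (adjusted p = 0.858) with no normalization between arrays, which shifted the median of all genes. The causes of the changes below were not tested. In IPC+IRI against IRI, 2 genes were called, and 1 with the brightest probe, the mean of log2 values, no filter, the strict filter (all arrays of both groups well above background) or a 2-fold limit, and 0 in the fit of the arrays compared. In IPC+IRI against IRI+Hemin, 2 were called, 1 with the deposited matrix or the strict filter, and 0 with normexp, no normalization, a 2-fold limit or the fit of the arrays compared. In IRI+Hemin against IRI, 4 became 2 with no normalization and 1 with a 2-fold limit. In Hemin against Control, 3 became 1 with normexp and 0 with a 2-fold limit.

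Leaving out each array gave 6 to 8 calls in IRI against Control, 5 to 7 in IPC+IRI against Control, 8 to 8 in IRI+Hemin against Control and 2 to 3 in Hemin against Control. It gave 0 to 3 in IPC+IRI against IRI, where the count was 0 without IRI replicate 3 and 1 without IRI replicate 4, 3 to 4 in IRI+Hemin against IRI, and 0 to 0 in the interaction. IPC+IRI against IRI+Hemin gave 1 to 3, the lowest without IRI+Hemin replicate 2 or IPC+IRI replicate 1.

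The replicate number is the position on the slide, and deviations of same-numbered arrays correlated at -0.37 to 0.21 over 40 pairs. Arrays with different numbers were not compared in this way, so these values do not settle whether the numbers pair the samples. With the replicate block, the 8 counts of calls were as before, and in IPC+IRI against IRI the call of Irak3 was lost (-1.21, adjusted p = 0.0555) and S100a9 was called (1.27, adjusted p = 0.0332). A random block for the slide could not be fitted, since each slide held 1 group.

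Over all genes, 33.5% of the calls in IRI against Control were of higher genes, and 56.4% with normexp or 19.7% with the deposited matrix. In Hemin against Control the share was 51.2%, and 94.8% with no normalization, which moved the median of all genes there by 0.57, 61.6% with the deposited matrix or 35.0% with scaling by detected probes. With no normalization it went from 42.4% to 77.4% in IRI+Hemin and from 41.5% to 75.2% in IPC+IRI against Control. Against IRI it was 59.2% in IRI+Hemin, with 91.5% for no normalization, 78.0% for the deposited matrix and 44.9% for normexp, and 59.5% in IPC+IRI, with 90.9%, 73.7% and 49.0%. In IPC+IRI against IRI+Hemin it was 53.3%, and 39.5% with the deposited matrix, and in the interaction 75%, with 64.7% after quantile normalization and 89.5% with the deposited matrix.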

Other observations

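Markers of other cell types gave these linear sums in units of the 75th percentile. The 5 lymphocyte markers summed to between 0.453 and 0.507 in Control, 0.258 and 0.334 in Hemin, 0.234 and 0.343 in IRI, 0.208 and 0.478 in IPC+IRI, and 0.174 and 0.328 in IRI+Hemin, so IRI, IRI+Hemin and Hemin lay below Control without overlap. The 5 pan-leukocyte markers summed to between 1.68 and 1.78 in Control, 1.06 and 1.42 in Hemin, 1.80 and 2.35 in IRI, 1.10 and 3.77 in IPC+IRI, and 1.29 and 2.51 in IRI+Hemin. The 4 endothelial markers had a median sum of 2.83 in Control, 2.65 in Hemin, 4.19 in IRI, 2.43 in IPC+IRI and 3.24 in IRI+Hemin. The 5 platelet and red cell markers ranged from 31.8 to 140.2 within Control and from 11.5 to 54.7 within IPC+IRI.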
